A study of Mus musculus with 10 samples.

Results

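The genes described are 10 that build epithelial cell junctions and the simple-epithelium keratin network: Cdh1, Cdh3, Epcam, Cldn4, Cldn6, Cldn7, Krt8, Krt18, Dsp and Dsg2. They were chosen by function and by name, with earlier results of the double knockout against wild type in these data known, and every probe that carries one of the names was taken. This gave 15 of the 39429 probes on the array, of which 13 were bright enough to test, and all 10 genes lay among the 20666 genes tested. The series measured messenger RNA of mouse embryonic stem cell lines with disrupted Tet1, Tet2 or both, on 10 Agilent arrays that each carried 1 RNA labelled with Cy5 and 1 labelled with Cy3. Tet1 and Tet2 encode dioxygenases that oxidise 5-methylcytosine in DNA.

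All lines came from mice of a mixed C57/BL/6 background and were grown on irradiated feeder cells in medium with LIF. Feeder cells were removed by plating on gelatin before the RNA was taken. Wild type (WT) was represented by the male lines 6 and 92 and the female lines 7 and 94, and the Tet1/Tet2 double knockout (DKO) by the male lines 51 and 61 and the female lines 60 and 59. The Tet1 knockout (T1KO) was represented by the male lines 99 and 65, and the Tet2 knockout (T2KO) by the single male line 16. The kind of mutant allele is not given in the sources used here, and each line is 1 derivation, so that a difference of genotype and a difference between derivations can be told apart only where several lines share a genotype. Each DKO line was hybridised in Cy5 with a same-sex WT line in Cy3 (51 over 6, 61 over 92, 60 over 7, 59 over 94), and T2KO 16 in Cy5 against T1KO 65 in Cy3. Dyes were never swapped, so a probe's dye bias cannot be told apart from a genotype difference in these ratios. T1KO 99 was the Cy3 sample of its arrays, whose Cy5 sample the submitters set aside for a false genotype. Repeat arrays of the same pair of RNAs were averaged and counted once, which left 11 lines.

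E-cadherin, the product of Cdh1, and P-cadherin, the product of Cdh3, hold neighbouring cells together at adherens junctions, where their tails bind catenins. Claudins (Cldn4, Cldn6, Cldn7) form the strands of tight junctions, Epcam is a homophilic adhesion molecule that associates with Cldn7, and desmoplakin (Dsp) ties keratin filaments to the desmosomal cadherins, among them desmoglein 2 (Dsg2). Keratin 8 and keratin 18 are the obligate type II and type I partners of the first keratin filaments of the embryo. Embryonic stem cells grow as compact colonies that depend on E-cadherin, and trophectoderm and primitive endoderm, the first epithelia to form beside the epiblast, are rich in keratin 8 and keratin 18.

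The values rest on 60-base probes, and the first 30 bases of those that carry the main results are shown to identify what was measured. Positions are those of the array design on mouse mm9, whose gene annotation was not used here, so no exon or UTR is assigned. The Cdh1 probe lies at chr8:109193812-109193871 and was printed in 10 spots per array. Krt8 was read by a pair of probes at chr15:101827138-101827197 and chr15:101828827-101828886, and Krt18 by 1 probe on the other strand at chr15:101862341-101862400. Cldn4 was read by a pair at chr5:135422135-135422194 and chr5:135421347-135421406. The Dsp probe at chr13:38290121-38290180 was also printed in 10 spots.
Cdh1: acattctaacgggaaaaaggagacaagacc
Krt8, probe that stands for the gene: ccatccaaacccaattcagttgtattttct
Krt8, second probe: agatctccgagatgaaccgcaacatcaacc
Krt18: ggatggcagagtggtgtccgagactaatga
Cldn4, probe that stands for the gene: acaacgtcatccgcgacttctacaacccta
Cldn4, second probe: accctactaatgaatttctgtagagtggat
Dsp: aaattacactgactactggtggcttagtac

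Levels are log2 intensities after background correction and normalization, so 1 unit is a 2-fold difference. They compare lines for the same probe and never 1 gene with another. In bulk RNA, fewer cells that express a gene and less RNA per cell cannot be told apart. Between 55.2% and 61.5% of gene spots were well above background in Cy3 and between 62.6% and 69.0% in Cy5, and no spot was saturated. Tet1 lay at 10.52 to 11.08 in the 6 lines labelled as lacking it and at 12.78 to 13.13 in the other 5. Tet2 lay at 9.40 to 10.12 in the 5 lines labelled as lacking it and at 11.43 to 12.05 in the other 6. Both targeted genes therefore went with the labels. Whether their probes lie in the deleted part is not given in the sources used here. The stem cell markers Pou5f1 (15.17 to 15.71), Nanog (15.10 to 15.94) and Sox2 (12.08 to 12.89) were well above background in all 11 lines, as were the 16 genes of the stem cell list. Col1a1, a collagen of fibroblasts such as feeder cells, was also well above background throughout, at 12.70 to 13.75, and the part of feeder RNA in the results was not tested.

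Cdh1 varied most of the 10 genes. The level was 9.34 in WT 6, 9.10 in WT 92, 12.96 in WT 7 and 10.40 in WT 94. In the DKO lines it was 12.36 in line 51, 11.84 in line 61, 12.22 in line 60 and 10.57 in line 59. T1KO 99 stood at 8.81, T1KO 65 at 12.48 and T2KO 16 at 9.05. Cdh1 was thus low in both male WT lines, T1KO 99 and T2KO 16, high in WT 7, T1KO 65 and DKO 51, 61 and 60, and in between in WT 94 and DKO 59. Every genotype with more than 1 line held lines that differed in Cdh1, and the WT and DKO lines overlapped.

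The distance from the lowest line, T1KO 99, to the highest, WT 7, was 4.15 on the log2 scale, or 17.8-fold. WT lines alone spanned 3.86, or 14.5-fold, and the T1KO lines differed by 3.67, or 12.7-fold. Only technical error can be set beside these distances, since the labels name no separate cultures of a line. Repeat arrays of the same line differed by 0.52 at most, for Cdh1 in WT 94. Over the 10 Cdh1 spots of an array, the SD of the level was 0.021 to 0.194 and that of the ratio 0.091 to 0.151. A range of at least 2 over the 11 lines was met by 3 of the 10 genes (Cdh1, Krt8 and Krt18) and by 2.55% of all genes tested, whose median range was 0.65. A range as large as that of Cdh1 was reached by 46 of the 20666 genes, Cdh1 included.

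**Figure D1:**
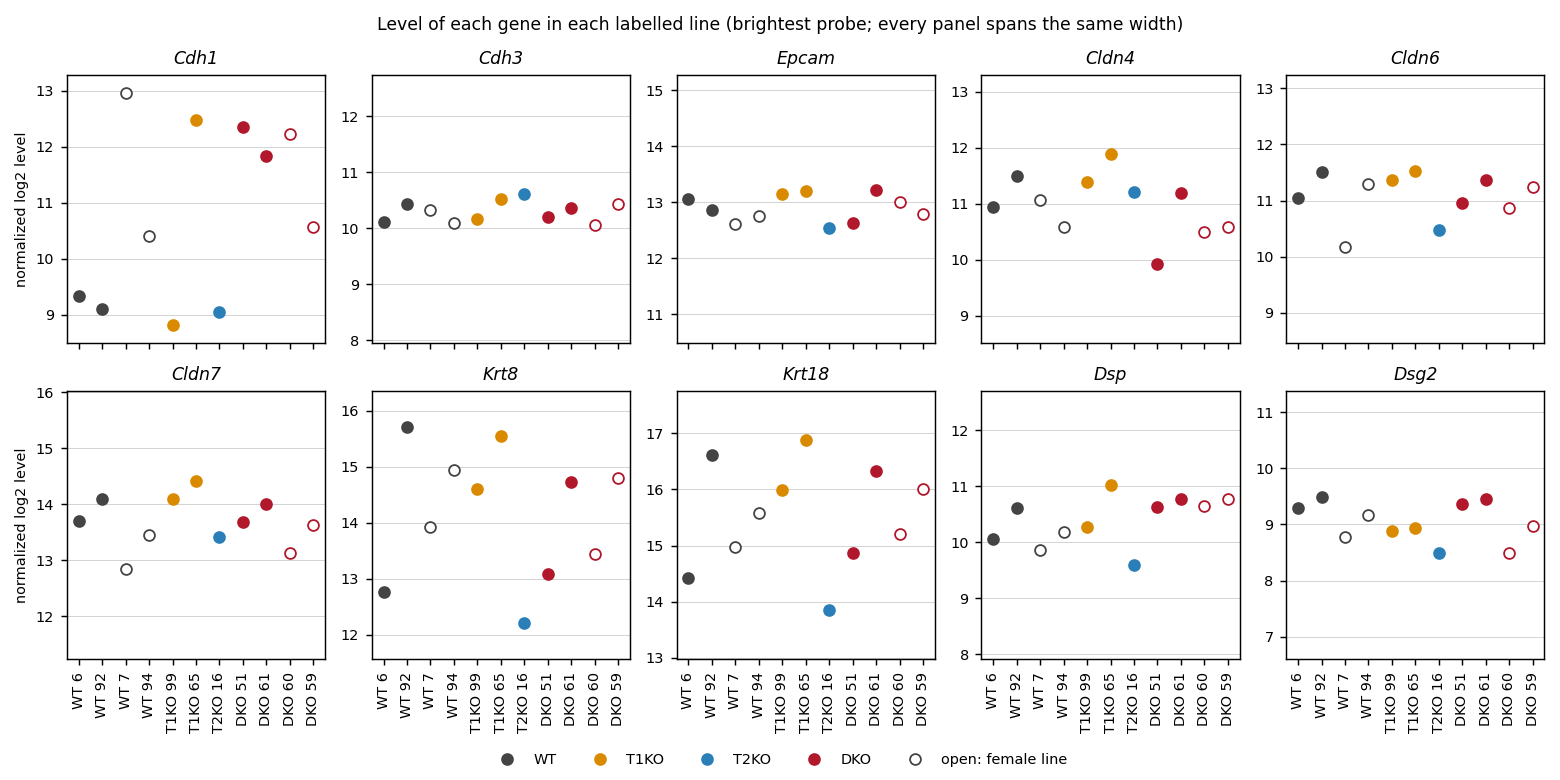
Normalized log2 level (vertical axes, each spanning the same width) of the 10 genes in the 11 labelled lines (horizontal axis), 1 point per line, coloured by genotype and open for female lines. Cdh1 runs from 8.81 in T1KO 99 to 12.96 in WT 7, Krt8 and Krt18 are low and high in the same lines, and Cdh3 stays between 10.07 and 10.62.

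The gene next to Cdh1 did not share its variation. Cdh3, whose probe lies 114 kb away at chr8:109079933-109079992, ranged from 10.07 to 10.62, a span of 0.55. It was 10.11, 10.44, 10.33 and 10.10 in WT 6, 92, 7 and 94, and 10.21, 10.37, 10.07 and 10.43 in DKO 51, 61, 60 and 59. The Cdh3 and Cdh1 levels had a Pearson r of -0.05 over the 11 lines. All 4 genes tested within 250 kb of the Cdh1 probe (Zfp90, Cdh3, Tango6 and Chtf8) had ranges from 0.29 to 0.82. This window was set after the values were seen.

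**Figure D2:**
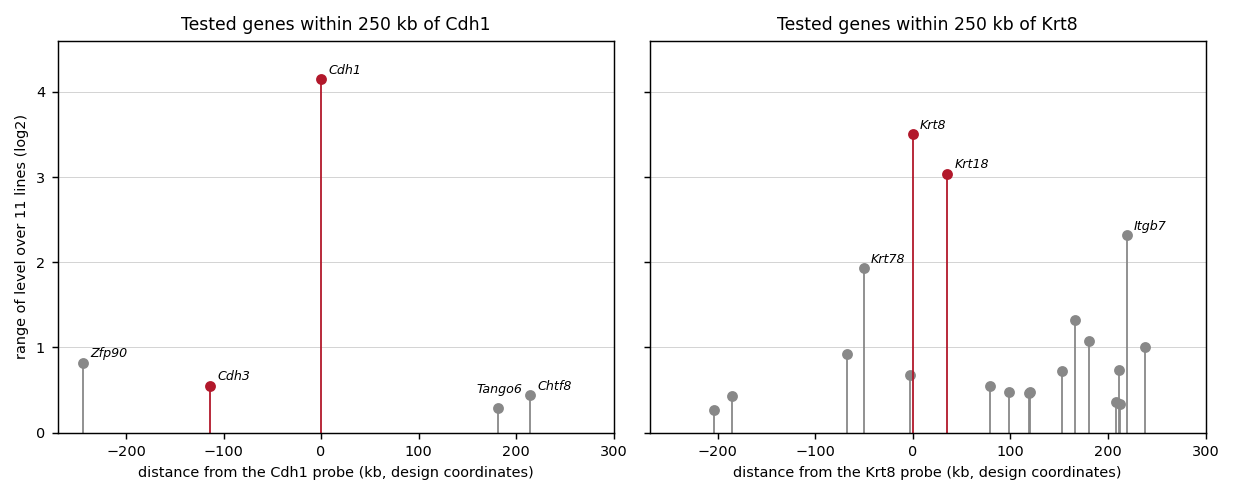
Range of the level over the 11 lines (vertical axis, log2) of every gene tested within 250 kb of the Cdh1 probe (left) and the Krt8 probe (right), against distance in kb along the array's design. Beside Cdh1 at 4.15 the neighbours reach at most 0.82, whereas Krt8 at 3.50 has Krt18 at 3.04 beside it.

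Among all genes tested, those whose levels followed Cdh1 most closely over the 11 lines were Catsperg1 (r = 0.90), Zfp867 (0.90), Ccdc59 (0.89), Fam71f2 (0.86) and AU022202 (0.85). Without WT 7 and T1KO 65, the lines farthest from the Cdh1 median, r was 0.93, 0.88, 0.89, 0.82 and 0.96 in the same order. These genes spanned 0.29 to 0.97, far less than Cdh1, and none is one of the 10. Catsperg1 lay at 6.31 to 6.60, AU022202 at 6.39 to 6.81 and Fam71f2 at 6.64 to 7.15. Such levels are near background, since the Dsp probe too dim to test read 6.36 to 6.76. The 11 points share slides and both dyes, and these genes were picked as the highest of all tested, so the correlations are a description. Within the 10 genes, the r of Cdh1 with another member lay between -0.28 (Cldn7) and 0.40 (Dsp). Without WT 7 and T1KO 65 it lay between -0.73 (Cldn4) and 0.63 (Dsp).

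Krt8 and Krt18 varied nearly as much as Cdh1 but over other lines. The Krt8 level was 12.76, 15.71, 13.92 and 14.95 in WT 6, 92, 7 and 94, and 13.08, 14.73, 13.43 and 14.79 in DKO 51, 61, 60 and 59. T1KO 99 had 14.60, T1KO 65 had 15.54 and T2KO 16 had 12.21. Low levels were thus found in T2KO 16, WT 6 and DKO 51 and high ones in WT 92 and T1KO 65, and the T1KO lines alone differed by 0.94. Krt18 was 14.42, 16.62, 14.97 and 15.57 in the WT lines and 14.86, 16.34, 15.20 and 16.01 in the DKO lines, in the same order. T1KO 99 stood at 15.99, T1KO 65 at 16.89 and T2KO 16 at 13.85. The same lines were low and high for both keratins.

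The range of Krt8 was 3.50, or 11.3-fold, and that of Krt18 was 3.04, or 8.22-fold. Male WT 92 exceeded male WT 6 by 7.72-fold for Krt8 and by 4.61-fold for Krt18. The second Krt8 probe spanned 3.0, from 11.15 in T2KO 16 to 14.15 in WT 92. Over the 11 lines Krt8 and Krt18 had a Pearson r of 0.95 and a Spearman rho of 0.92, and r was 0.90 without T2KO 16 and WT 6, the lines farthest from the Krt8 median. Krt8 and Cdh1, by contrast, had r = 0.06. WT 6 and T2KO 16 were low in both, T1KO 65 was high in both, WT 92 was high in Krt8 and low in Cdh1, and DKO 51 was the reverse.

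**Figure D3:**
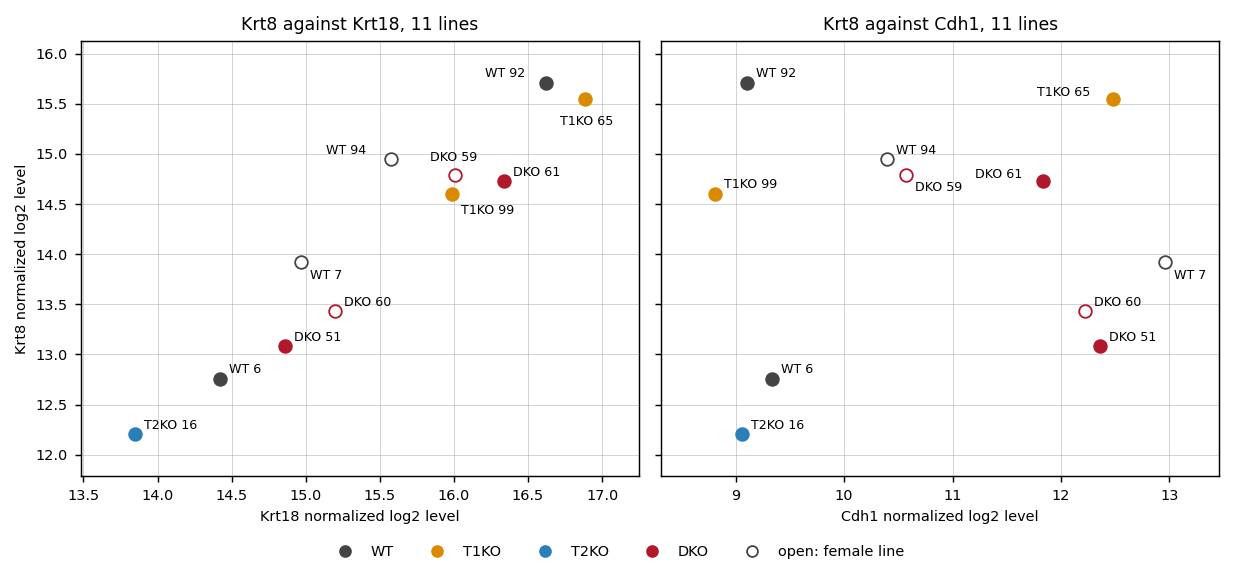
Normalized log2 level of Krt8 (vertical axis) against that of Krt18 (left) and Cdh1 (right), 1 labelled point for each of the 11 lines, coloured by genotype and open for female lines. Krt8 follows Krt18 from T2KO 16 at the lower left to WT 92 and T1KO 65 at the upper right (r = 0.95), and the points scatter against Cdh1 (r = 0.06).

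Krt8 and Krt18 lie side by side on chromosome 15 and are transcribed on opposite strands. Their probes are 35.2 kb apart, and of the 18 genes tested within 250 kb of the Krt8 probe Krt18 had the largest range, the median being 0.70. The 250 bases before the RefSeq start of each gene (GRCm38.p6) are shown because both move together, and those of Cldn4 because its ratio had 1 sign in every pair. The Krt8 stretch is chr15:102004343-102004592 on the minus strand, the Krt18 stretch chr15:102027966-102028215 on the plus strand, and the Cldn4 stretch chr5:134946935-134947184 on the minus strand. Capitals mark CACCTG or its reverse complement, the E-box bound by the Snail and Zeb repressors of epithelial genes, and TGANTCA, the AP-1 motif.
Krt8: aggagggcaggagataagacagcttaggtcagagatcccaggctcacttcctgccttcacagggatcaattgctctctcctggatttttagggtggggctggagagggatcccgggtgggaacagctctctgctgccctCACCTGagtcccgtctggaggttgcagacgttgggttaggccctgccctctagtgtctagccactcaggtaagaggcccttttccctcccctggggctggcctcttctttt
Krt18: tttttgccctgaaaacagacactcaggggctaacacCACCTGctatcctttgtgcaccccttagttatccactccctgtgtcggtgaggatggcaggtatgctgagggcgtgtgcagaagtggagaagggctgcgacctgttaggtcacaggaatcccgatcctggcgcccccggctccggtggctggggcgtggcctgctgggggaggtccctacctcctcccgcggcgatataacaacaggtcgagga
Cldn4: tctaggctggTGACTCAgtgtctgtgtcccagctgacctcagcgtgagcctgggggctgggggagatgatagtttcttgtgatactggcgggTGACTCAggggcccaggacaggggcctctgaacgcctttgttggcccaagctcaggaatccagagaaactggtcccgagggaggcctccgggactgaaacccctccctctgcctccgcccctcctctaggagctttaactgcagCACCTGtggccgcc

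Promoter entries were matched for 7 of the 10 genes (Epcam, Cldn4, Cldn6, Cldn7, Krt8, Krt18 and Dsp). CACCTG, read on both strands, was found in 6 of them, all but Dsp, where a gene counted if any of its windows matched. Cldn7 had 2 windows, and only the second held CACCTG. The motif was found in 17.2% of the 32851 promoter windows of the same length, a share of windows and not of genes. It began 111 bases before the start in Krt8, 214 in Krt18 and 14 in Cldn4. TGANTCA was found only in Cldn4 among the 7, in 2 copies that begin 240 and 158 bases before the start, and in 6.75% of all windows. No match overlapped another. The Krt8 stretch held 3 CG dinucleotides, the Krt18 stretch 12 and the Dsp stretch 22, against a median of 6 over all windows. A match is a description of the letters, and DNA methylation and factor binding were not measured.

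Cldn6 and Cldn7 formed a second set of members with a common order of lines. Cldn6 was 11.04, 11.51, 10.17 and 11.29 in WT 6, 92, 7 and 94 and 10.96, 11.37, 10.87 and 11.25 in DKO 51, 61, 60 and 59. T1KO 99 read 11.36, T1KO 65 read 11.53 and T2KO 16 read 10.47. Both claudins were lowest in WT 7 and highest in T1KO 65, and Cldn7 ran from 12.85 to 14.41 between those lines. Their r over the 11 lines was 0.85, and 0.82 without WT 7 and T2KO 16. Cldn6 also had r = 0.72 with Krt8 and 0.79 with Krt18, or 0.92 and 0.89 without the same lines. Epcam spanned 0.67, from 12.55 in T2KO 16 to 13.22 in DKO 61, close to the median range of 0.65 of all genes. Dsg2 spanned 1.01, from 8.49 in T2KO 16 and DKO 60 to 9.49 in WT 92.

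The levels of Krt8, Krt18 and Dsp, and of some other members, went with those of marker lists for other states of the early embryo. The median of the 16 primitive endoderm genes, each taken relative to its own mean over the lines, was highest in T1KO 65 (0.64) and WT 92 (0.44) and lowest in WT 6 and WT 7 (-0.30 each), with T2KO 16 at -0.20. Over the 11 lines it had r = 0.70 with Krt8, 0.78 with Krt18 and 0.69 with Dsp, and 0.44, 0.60 and 0.65 without T1KO 65 and WT 92. For the 16 stem cell genes the median ran from -0.21 in DKO 61 to 0.33 in T2KO 16, and r was -0.77 with Krt8, -0.86 with Krt18 and -0.83 with Dsp. Without these lines r was -0.67, -0.77 and -0.71. The 14 trophectoderm genes had medians from -0.28 to 0.14 and r = 0.66 with Krt8 and 0.78 with Krt18, of which 0.37 and 0.68 were left without WT 6 and T2KO 16. With Epcam their r was 0.50, or 0.91 without the same lines. The primitive endoderm median also had r = 0.66 with Cldn6 and 0.70 with Cldn7, or 0.56 and 0.39 without T1KO 65 and WT 92. For the 12 primed epiblast genes r was 0.67 with Dsp and 0.47 with Krt18, or 0.01 and -0.14 without T2KO 16 and WT 7.

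Of these lists, 12 of the 16 primitive endoderm genes and 10 of the 14 trophectoderm genes were well above background in all 11 lines. The summed log2 level of the primitive endoderm list spanned 16.57 to 17.23 over WT and 16.91 to 17.21 over DKO. That of the trophectoderm list spanned 14.19 to 14.37 over WT and 14.25 to 14.42 over DKO. Their defining regulators were well above background in all 11 lines, with Gata6 at 7.49 to 8.95, Gata4 at 7.39 to 8.11 and Cdx2 at 7.39 to 8.64. For scale, a Dsg2 probe that was well above background in no line read 6.01 to 6.33. Of the 28 feeder fibroblast genes, 26 were well above background in all lines, and the list's median ran from -0.50 in WT 7 to 0.35 in WT 92. Its r was 0.42 with Krt8 and -0.37 with Cdh1, and 0.32 and 0.00 without WT 7 and WT 92. The part of these cells in the keratin and Cdh1 levels was not tested.

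The DKO lines were compared with WT in 4 pairs by limma's moderated test of the log2 ratios against 0, with Benjamini-Hochberg adjustment over all genes at 0.05. Since this contrast was known when the genes were chosen, their values in it are a description. The test called 4.64% of all genes (958 of 20666, of which 602 were higher in DKO) and none of the 10. The median ratio of the 10 genes was 0.09 against 0.02 for all genes, and 7 ratios were positive and 3 negative. With median centring in place of loess the median of all genes moved to 0.23, the share of calls that were higher in DKO went from 62.8% to 92.0%, and the median of the 10 genes was 0.47, or 0.24 above that of all genes. The same sign in all 4 pairs was found for 2 of the 10 (Dsp, and Cldn4 with 1 ratio near 0) and for 37.3% of all genes.

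For Cdh1 the ratio was 3.02 in DKO 51 over WT 6, 2.74 in DKO 61 over WT 92, -0.74 in DKO 60 over WT 7 and 0.17 in DKO 59 over WT 94. The male pairs averaged 2.88 and the female pairs -0.28, and the mean of all 4 was 1.30 ± 1.87 (SD, n = 4). Cdh1 was therefore higher in DKO in both male pairs, where the WT lines were low. The male minus female difference of 3.16 is a description for the same reason as above. Over all genes, the limma test of that difference called 0% (0 of 20666, with 1065 at an unadjusted p under 0.05). Sex and slide lie together in these arrays and cannot be told apart. In the same difference the median was -0.65 for the feeder genes (28 of 28 negative) and -0.92 for the primed epiblast genes (11 of 12 negative). It was -0.27 for the primitive endoderm genes, -0.03 for the trophectoderm genes and 0.08 for the stem cell genes. None of these marker genes passed, and their part in the Cdh1 ratios was not tested.

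Dsp had positive ratios of 0.57, 0.15, 0.77 and 0.58 in the pairs of DKO 51, 61, 60 and 59, with a mean of 0.52 ± 0.26 (SD, n = 4), or 1.43-fold. The DKO lines stood at 10.63, 10.76, 10.64 and 10.77, and the WT lines at 10.06, 10.62, 9.86 and 10.19 for WT 6, 92, 7 and 94. The DKO lines lay within a narrow band just above the highest WT line, WT 92. Taking the probe that stands for each gene, Dsp was the only member whose DKO and WT lines did not overlap, which held for 13.4% of all genes. The gap from WT 92 to DKO 51 was only 0.02. The repeat arrays of DKO 51 read 10.65 and 10.61, on either side of WT 92, so this separation is not stable. T1KO 65, at 11.03, was above all DKO lines, T1KO 99 stood at 10.26, and T2KO 16, at 9.58, was the lowest line. A second Dsp probe was well above background in 2 of the 11 lines and was not tested.

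Cldn4 had negative ratios of -1.01, -0.31, -0.57 and -0.01 in the same order, with a mean of -0.47 ± 0.42 (SD, n = 4). Its second probe read -1.62, -0.71, -1.18 and -0.46, with a mean of -0.99 ± 0.51 (SD, n = 4). The second probe was thus below 0 in every pair and gave the larger differences. The -0.01 of the first probe has no stable sign, since its repeat arrays read 0.07 and -0.09, and the same sign in all pairs by this probe rests on it. By the first probe WT 6, 92, 7 and 94 stood at 10.94, 11.50, 11.06 and 10.59, and DKO 51, 61, 60 and 59 at 9.93, 11.19, 10.49 and 10.58. The genotypes overlapped by this probe, because DKO 61 exceeded 3 of the WT lines. By the second probe they did not overlap, with DKO at 9.35, 10.55, 9.80 and 10.18 and WT at 10.97, 11.26, 10.98 and 10.64 in the same order. T1KO 99, T1KO 65 and T2KO 16 stood at 11.39, 11.88 and 11.20.

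The remaining members had ratios close to 0 or of mixed sign. Krt8 read 0.32, -0.98, -0.48 and -0.16, a mean of -0.33 ± 0.55 (SD, n = 4), and Krt18 read 0.44, -0.29, 0.23 and 0.44, a mean of 0.21 ± 0.34 (SD, n = 4). The ratio of either keratin within a pair was small beside the 3.50 and 3.04 that separated the lines. Cldn7 (0.08 ± 0.17), Cldn6 (0.11 ± 0.40), Epcam (0.09 ± 0.38), Cdh3 (0.02 ± 0.25) and Dsg2 (-0.11 ± 0.16) had means within 1 SD of 0 (n = 4 pairs each). Cldn7 was slightly negative in both male pairs (-0.03 and -0.09) and positive in both female pairs (0.27 and 0.19). For Dsg2 the tested probe with the lower signal read 0.01, 0.28, 0.55 and 0.73, and the probe that stands for the gene 0.06, -0.03, -0.29 and -0.19, so the probes disagreed in the female pairs. The remaining Dsg2 probe was not well above background in any line.

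**Figure D4:**
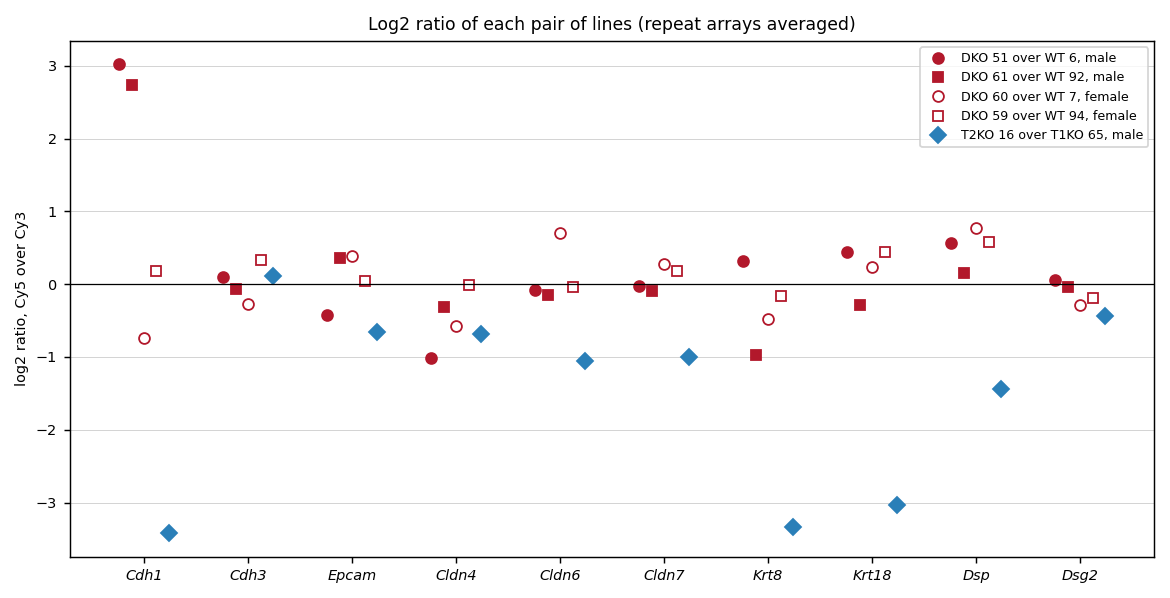
Log2 ratio of Cy5 over Cy3 (vertical axis) for each of the 10 genes (horizontal axis) in the 4 DKO over WT pairs (red, filled for male and open for female) and in T2KO 16 over T1KO 65 (blue diamonds), repeat arrays averaged. The DKO ratios of Cdh1 split into 3.02 and 2.74 in the male and -0.74 and 0.17 in the female pairs, and the T2KO over T1KO ratio is below 0 for 9 of the 10 genes.

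T2KO was compared with T1KO directly on 2 repeat arrays of 1 pair of lines. Nearly all of the 10 genes were lower in T2KO 16 than in T1KO 65. Cdh1 had a log2 ratio of -3.42, with -3.45 and -3.39 on the repeat arrays, Krt8 of -3.34 and Krt18 of -3.04. Dsp followed with -1.44, Cldn6 with -1.06, Cldn7 with -1.0, Cldn4 with -0.68, Epcam with -0.65 and Dsg2 with -0.44, or -0.02 by its second tested probe. Only Cdh3, at 0.11, was positive. The median of the 10 genes was -1.03 against 0.01 for all genes. In the same comparison the median was -0.72 for the primitive endoderm genes (15 of 16 negative), -0.78 for the primed epiblast genes (10 of 12 negative), -0.23 for the trophectoderm genes (9 of 14 negative), 0.42 for the stem cell genes (13 of 16 positive) and -0.03 for the feeder genes. None of these marker genes passed the test, and their part in the members' ratios was not tested. A ratio of -1 or lower was reached by 5 of the 10 (Cdh1, Krt8, Krt18, Dsp and Cldn6) and by 1.88% of all genes, with Cldn7 just short of it.

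With 1 pair, the spread for the test came from the DKO over WT pairs, so the lone pair was assumed to vary like those. The limma test then called 0.00484% of all genes (1 of 20666), and none of the 10, whose adjusted p lay between 0.251 (Cdh1, Cldn7 and Krt18) and 0.884 (Cdh3). Unadjusted p was under 0.05 for 7 of the 10 and for 2702 of all genes. With the background model fitted on all spots, the ratio of Cdh1 was -1.38 and that of Dsp -0.35, while Krt8 and Krt18 stayed at -3.01 and -2.96. The lines themselves lay at the ends of the distribution. T1KO 65 was the highest of the 11 lines for 5 of the 10 genes, and T2KO 16 the lowest for 4. The other T1KO line, 99, had Cdh1 at 8.81, which is below T2KO 16 at 9.05.

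T1KO was compared with male WT through the Cy3 channel, which held all of these lines. The female lines WT 7 and WT 94 entered the fit for the estimate of spread only. Each SE therefore includes the distance between them, which for Cdh1 was that from 12.96 to 10.40. The Cdh1 means were 10.64 in T1KO and 9.22 in male WT, a difference of 1.43 with a standard error (SE) of 1.32 (n = 2 lines each, limma adjusted p = 0.669). Krt8 differed by 0.84 (SE 0.96) and Krt18 by 0.91 (SE 0.73), neither beyond the spread between lines. Dsg2, the only member lower in T1KO by the probe that stands for it, had means of 8.91 and 9.40, a difference of -0.49 (SE 0.16, limma adjusted p = 0.312). Its second tested probe went the other way, with T1KO at 8.41 and 8.33 and male WT at 7.63 and 7.61, and the mean of both probes gave 0.13, so the direction of Dsg2 turns with the probe. The test called 0% of all genes (0 of 20666, with 2828 at an unadjusted p under 0.05) and none of the 10, whose median difference was 0.33 against 0.00 for all genes. Without T1KO 65 the Cdh1 difference was -0.41, and without T1KO 99 it was 3.26. Without WT 6 that of Krt8 was -0.64, and without WT 92 it was 2.31. The lines lie on different slides, so slide and genotype cannot be told apart.

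Male DKO was compared with T2KO through the Cy5 channel, a contrast of lines that lack Tet2 with and without Tet1. The single T2KO line adds no spread. Each SE rests on the spread of the male DKO lines and of the female lines DKO 60 and DKO 59, used for that estimate only. Cdh1 stood at 12.36 and 11.84 in the DKO lines and at 9.05 in T2KO 16, a difference of 3.04 (SE 0.70, limma adjusted p = 0.330), or 8.24-fold. Dsp differed by 1.11 (SE 0.14, adjusted p = 0.322 by limma), with 10.63 and 10.76 against 9.58. Krt18 differed by 1.75 (SE 0.68) and Krt8 by 1.70 (SE 0.86). Cldn4 (-0.64) and Cdh3 (-0.34) were the members with lower levels in DKO. The test called 0.029% of all genes (6 of 20666, all lower in DKO) and none of the 10, whose median was 0.81 against 0.01. With the background model fitted on all spots, the difference was 2.07 for Cdh1 and 0.73 for Dsp. Those of Krt8 and Krt18 were then 1.47 and 1.70. Without DKO 61 the Krt8 difference was 0.87, and without DKO 51 it was 2.52. This comparison shares T2KO 16 with the one against T1KO, and 1 line stands for T2KO in both.

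Other genes of the junctions were taken from 6 lists without the 10 members. No gene of any kind passed when 1 of the 4 pairs was left out (0 of 20666 by limma each time, with 3622 to 4878 at an unadjusted p under 0.05), so every call of the lists rests on all 4 pairs. Of the 15 adherens junction genes tested, 1 was higher in DKO and none lower, a share near the 4.64% called among all genes. This was Cdh4, encoding R-cadherin, with ratios of 0.72, 0.37, 1.02 and 0.77 in the 4 pairs (mean 0.72, SE 0.12, limma adjusted p = 0.0415). Its DKO lines lay at 7.40 to 7.95 and its WT lines at 6.70 to 7.20, so they did not overlap. Cdh4 passed in 5 of 8 alternatives that kept all pairs. Its ratio was 0.35 in the authors' value table and 1.27 with processed signals. Nectin1, an immunoglobulin-like adhesion receptor, read 0.43 and Pvrl3, named by the array for nectin 3, -0.46, and neither passed. The other tested probe of Pvrl3 read 0.02. The median of the list was 0.14.

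Of the 25 tight junction and polarity genes tested, 2 rose and 1 fell in DKO, against 4.64% called among all genes, and the median was -0.01. Tjp3, encoding the scaffold ZO-3, fell by 0.82 on the log2 scale (SE 0.07, limma adjusted p = 0.0216), with -0.76, -0.93, -0.70 and -0.87 in the pairs and no overlap between DKO (11.83 to 12.43) and WT lines (12.53 to 13.36). Such absence of overlap held for 13.4% of all genes. Tjp3 passed in 8 of 8 alternatives that kept all pairs. Its homologue Tjp1, encoding ZO-1, rose by 0.35 (limma adjusted p = 0.0451), with 0.38, 0.25, 0.35 and 0.42. The polarity scaffold Patj rose by 0.41 (limma adjusted p = 0.0450) by its brightest probe, while its 4 other tested probes averaged from -0.05 to 0.07, and it passed in 3 of 8 such alternatives. Tjp1 passed in 5 of 8. Marveld2, the tricellulin of tricellular contacts, read 0.51 and did not pass.

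In the desmosome list, Dsc3, a desmosomal cadherin that pairs with desmogleins, was positive in every pair at 2.03, 1.82, 1.90 and 2.04, and its DKO lines lay at 7.78 to 7.93. It was not well above background in any WT line, so the WT level is only a bound. It passed the filter on dim probes only through the 5 lines where it was high, the 4 DKO lines and T2KO 16. These were all the labelled lines in Cy5, while the WT and T1KO lines were in Cy3. Genotype and dye therefore cannot be told apart for Dsc3. Between lines of the same dye it differed by 0.38 in male DKO minus T2KO and by 0.07 in T1KO minus male WT. The DKO signal in Cy5 was at least 2.4-fold that of WT in Cy3. For this bound, the WT level was the higher of the probe's own signal and the dimmest signal well above background on each array. The limma adjusted p of 0.00701 is for the measured values, which rest on WT signals below that limit. Evpl, the cornified envelope linker envoplakin, read 0.77 and Perp, a desmosome-associated membrane protein, 0.63. Neither passed (limma adjusted p = 0.0742 and 0.0721), and both were positive in 4 of 4 pairs. Of the 9 desmosome genes tested, Dsc3 alone passed, 1 of 9 against 4.64% of all genes, and the median was 0.11. A count of 1 in so short a list is not read further.

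None of the 11 other keratins tested passed in DKO over WT, and their median was -0.13. Krt19, which can take the place of Krt18 as a partner of Krt8, spanned 11.25 to 14.11 over the lines and read -0.59 in DKO over WT and -1.89 in T2KO over T1KO. Krt42 read -0.66 and Krt17 -0.29. Of the 26 other epithelial genes tested, 2 rose, none fell, a share near the 4.64% of all genes, and the median was 0.09. Ovol2, a zinc finger repressor of mesenchymal genes, rose by 0.43 with 0.35, 0.45, 0.45 and 0.48 (limma adjusted p = 0.0285), and Cdcp1, a transmembrane glycoprotein, rose by 0.36 with 0.41, 0.33, 0.43 and 0.27 (limma adjusted p = 0.0448). Ovol2 passed in 5 of 8 alternatives that kept all pairs and Cdcp1 in 4 of 8. Rab25, an epithelial trafficking GTPase, read -2.25, -0.65, 0.97 and -0.70, and Grhl3, a transcription factor of surface epithelia, had a mean of -0.39. Neither passed.

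None of the 18 repressors of epithelial genes and mesenchymal genes passed, and their median was -0.06. Cdh2, encoding N-cadherin, read -0.64, -0.85, -0.05 and -0.10, Fn1 (fibronectin) had a mean of -0.31 and Vim (vimentin) one of -0.31. Snai1 lay at 9.43 to 10.13, Snai2 at 7.94 to 8.31, Zeb1 at 8.40 to 9.21 and Zeb2 at 7.03 to 7.54 over the 11 lines, all narrower than Cdh1. Over the lines Cdh1 had r = -0.69 with Cdh2, -0.07 with Snai1, -0.56 with Snai2, 0.30 with Zeb1 and -0.33 with Zeb2. In the other 3 contrasts and the difference between sexes, none of the genes of the 6 lists passed. In T2KO over T1KO the medians of the lists ran from -0.51 for the other epithelial genes to 0.03 for the repressors, with -0.34 for the tight junction list, against 0.01 for all genes.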

How the data were processed

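Messenger RNA was labelled from 200 ng of total RNA and read on 10 Agilent arrays, per the labels' protocols. The authors deposited the scanner's mean and background intensity of each spot and its log10 ratio of Cy5 over Cy3 (Feature Extraction 10.1.1.1, per the file headers), and a value table. Set against the scanner ratios over 10366 bright probes, that deposited table ran in the same direction (r = 0.925 to 0.971) with slopes of 2.78 to 2.94 on a log10 ratio, nearer to a log2 than to a log10 scale, and its columns had medians of 0.0018 to 0.0075. Its normalization is not given in the sources used here.

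Intensities were background-corrected (normexp, offset 50, the fit leaving out gene spots dimmer than their local background, 71 to 122 on an array), loess-normalized within and Aquantile-normalized between arrays with limma 3.58.1 in R 4.3.3. Between 173 and 337 outlier spots per array were left out. Spots of a probe were averaged, then repeat arrays. A gene was represented by its brightest tested probe. Of 39429 probes, 26581 were named through RefSeq accessions and the rest kept the array's names.

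A pair of lines, or a single line, counted as 1 replicate. Whether replicates were separate cultures is not given, so p-values measure only the spread between these lines. Within a pair, both lines deviated from their genotype's mean in a correlated way across genes (r = 0.19 to 0.51). Every member was named, and from each list the genes past an adjusted p of 0.05 in any contrast and the 3 with the largest DKO over WT ratio, and the 5 genes most like Cdh1. Members and lists were chosen with earlier results of these data known. The fits were tested on simulated data. Alternatives covered background, normalization, dim probes, probe choice, the deposited log2 value table, a random block, unpaired lines, slides and each line or pair left out.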

Additional observations from a re-analysis of the deposited data

Results flagged for a closer look

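The ratio of Cldn6 in DKO 60 over WT 7, 0.70, lay far from the other 3 pairs (-0.15 to -0.04), with a gap of 0.875 of the whole range, above Dixon's critical value for 4 values. WT 7 was the lowest of the 11 lines for Cldn6, at 10.17. Of 30 groups of 4 values examined, this was the only one with such a gap. By chance about 1 in 20 of such groups would show one, so 1 among 30 is not read further.

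The DKO over WT ratio of Cldn7 was below 0 in both male pairs and above 0 in both female pairs. The male minus female difference was -0.29 (SE 0.12, limma adjusted p = 0.828), and as a member's value in this contrast it is a description.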

How the results depend on the processing

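The number of genes called in DKO over WT was 958. It was 364 with normexp fitted on all spots, 8103 with median centring, 537 in the authors' value table and 1467 with every array kept and pairs treated as a random block. Within the slide of the male pairs and within that of the female pairs it was 0 by limma (2919 and 3384 genes at an unadjusted p under 0.05), and it was 0 without any 1 of the 4 pairs, where fewer pairs were fitted. In T2KO over T1KO, 1 gene was called, and 0 with normexp on all spots, with processed signals, in the authors' value table and on repeat array 1 alone, against 3 with median centring, without a filter on dim probes and on repeat array 2 alone. In male DKO minus T2KO, 6 genes were called, and 1 with normexp on all spots, 0 with processed signals and 2 without either DKO line. In T1KO minus male WT, 0 were called, 2 with processed signals and 0 to 1 without 1 line.

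The median of the 10 members in DKO over WT, 0.09, was 0.47 with median centring, 0.00 with processed signals and -0.01 in the male pairs. In T2KO over T1KO, -1.03, it was -0.34 with normexp on all spots and -0.52 with median centring. The male minus female median, -0.25, was -0.11 with median centring and -0.21 to -0.02 without 1 pair. Apart from these constructions the cause of each shift was not tested. Of 477 recomputed values of single members, 398 moved by less than the spread between replicates and 74 by more. The other 5, all in DKO over WT, passed the threshold: Epcam (0.50), Cldn7 (0.54), Krt18 (0.85) and Dsp (0.82) with median centring, and Dsp (0.52) with the random block. The value table has no Dsp probe that was tested here, so it gives no value for that gene. No paired analysis was possible because the replicate numbers mark repeat arrays of the same lines, so they pair nothing. The pairing of a DKO with a WT line on 1 array is already in the test, and with unpaired per-channel levels 1165 genes were called. For dim probes, background limits the ratio: the untested Dsp and Dsg2 probes give no more than a bound.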

Other observations

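The Cy5 sample on the T1KO 99 arrays, which the submitters set aside for a false genotype, is in no group. Its levels on both repeat arrays averaged 12.07 for Cdh1, 12.61 for Krt8, 14.11 for Krt18, 9.46 for Dsp, 10.19 for Cldn4, 10.37 for Cldn6, 12.99 for Cldn7, 12.64 for Epcam, 9.80 for Cdh3 and 8.94 for Dsg2. Cdh1 was thus among the high values of the labelled lines, while the values of Krt8 and Krt18 lay between those of T2KO 16 and WT 6.

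Krt78, a type II keratin whose probe lies 50.5 kb from that of Krt8, ranged over 1.93 between the lines, from 6.26 to 8.19. Itgb7, an integrin subunit 219 kb away, ranged over 2.32, from 9.49 to 11.81. Cldn3, 41.1 kb from Cldn4, ranged over 1.88, from 10.81 to 12.69. These neighbours were picked for their range after it was seen.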
